A study of Mus musculus with 20 samples.

Results

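Exonic CpGs far from transcription start sites (TSSs) were taken as autosomal CpGs that lay inside an exon of a protein-coding gene, more than 5 kb from the start of any annotated transcript, with at least 10 reads in all 20 liver libraries. The rule left 21973 CpGs of the 598055 autosomal CpGs that reached this coverage. Their methylated and total reads were summed in 200-bp bins, which gave 6611 exonic bins among 155318 autosomal bin parts, where a bin part holds the CpGs of 1 annotation category within 1 bin. By their measured CpGs, 4377 exonic bins held 1 to 3, 1987 held 4 to 9 and 247 held 10 or more. The reference sequence of the bins in these classes held a median of 5, 8 and 16 CpGs. A class thus counts measured CpGs, not all CpGs of the sequence. By reference CpGs, 1138, 4299 and 1174 exonic bins would fall into these ranges. The bins carried 3041 gene names, of which 1271 had 1 bin and 243 had at least 5. Coding sequence held 5111 bins, 3′ UTRs 1245, exons of non-coding transcripts of these genes 210 and 5′ UTRs 45.

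The libraries were made by reduced representation bisulfite sequencing (RRBS) from livers of wild-type C57BL/6J mice labelled male, with 5 libraries in each of 4 groups. AME (adverse maternal environment) dams ate a Western diet before and during pregnancy and lactation and were stressed in late gestation, whereas Con dams ate the control diet without stress. The d0 offspring (Con-d0, AME-d0) were delivered by C-section, and the d21 offspring (Con-d21, AME-d21) were born naturally, kept with their dam until weaning and fasted before collection. Each group came from 5 litters, with other litters at each age, so age cannot be told apart from delivery and fasting.

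A methyl group on the cytosine of a CpG is copied to the new strand at each DNA replication, is absent from most active CpG-rich promoters, and is usually present along the exons of transcribed genes. CpG-rich exons that stay unmethylated often belong to CpG islands inside genes, and many of these lie at developmental regulators. The newborn mouse liver still makes blood cells, and this activity leaves the organ in the weeks after birth while hepatocytes mature. In bulk liver, a change in the share of a cell type and a change of methylation within a cell cannot be told apart.

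RRBS cuts DNA with MspI at CCGG, a palindrome that reads the same on both strands, and 99.35% of the exonic bins held at least 1 such site, as did 99.29% of all bins. The sequences below were read from the GRCm38 reference (RefSeq, the assembly of mm10) for bins on which the results turn, with the cytosine and guanine of each measured CpG in capitals. The first 3 bins gained methylation from Con-d0 to Con-d21.
Zfp57, exon 5, chr17:37009601-37009800, plus strand: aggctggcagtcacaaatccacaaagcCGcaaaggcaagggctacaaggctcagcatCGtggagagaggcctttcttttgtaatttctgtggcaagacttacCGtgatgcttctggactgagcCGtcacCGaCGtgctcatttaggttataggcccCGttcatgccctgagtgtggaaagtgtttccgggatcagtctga
Adra1b, exon 5, chr11:43776201-43776400, plus strand: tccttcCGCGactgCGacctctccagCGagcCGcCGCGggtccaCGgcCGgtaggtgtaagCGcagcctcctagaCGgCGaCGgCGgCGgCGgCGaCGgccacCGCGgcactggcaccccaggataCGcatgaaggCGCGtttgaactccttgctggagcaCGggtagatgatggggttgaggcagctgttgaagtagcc
Neurl1b, exon 3, chr17:26439201-26439400, plus strand: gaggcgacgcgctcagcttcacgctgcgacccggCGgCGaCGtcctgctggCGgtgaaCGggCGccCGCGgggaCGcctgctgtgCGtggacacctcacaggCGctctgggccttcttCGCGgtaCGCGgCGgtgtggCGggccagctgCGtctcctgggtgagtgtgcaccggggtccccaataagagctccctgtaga
The next 4 bins lost methylation from Con-d0 to Con-d21.
Arid2, exon 15, chr15:96371401-96371600, plus strand: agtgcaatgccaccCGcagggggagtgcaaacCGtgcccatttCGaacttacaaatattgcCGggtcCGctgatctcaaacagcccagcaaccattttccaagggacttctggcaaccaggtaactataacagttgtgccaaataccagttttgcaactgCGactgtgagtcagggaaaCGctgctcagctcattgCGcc
Hspg2, exon 79, chr4:137559001-137559200, plus strand: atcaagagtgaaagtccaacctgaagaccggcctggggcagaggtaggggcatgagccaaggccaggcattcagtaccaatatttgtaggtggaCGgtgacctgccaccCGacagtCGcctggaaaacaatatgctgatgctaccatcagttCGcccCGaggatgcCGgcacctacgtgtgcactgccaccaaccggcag
Runx1, exon 8, chr16:92606001-92606200, plus strand: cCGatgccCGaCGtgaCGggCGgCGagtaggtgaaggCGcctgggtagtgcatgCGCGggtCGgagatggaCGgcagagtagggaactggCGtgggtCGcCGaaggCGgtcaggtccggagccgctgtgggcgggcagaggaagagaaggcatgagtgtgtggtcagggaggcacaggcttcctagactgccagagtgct
Runx3, exon 6, chr4:135175601-135175800, plus strand: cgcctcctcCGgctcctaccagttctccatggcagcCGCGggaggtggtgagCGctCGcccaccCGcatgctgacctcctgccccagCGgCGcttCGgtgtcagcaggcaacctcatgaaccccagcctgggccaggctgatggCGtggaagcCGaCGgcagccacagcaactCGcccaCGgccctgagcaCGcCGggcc
Of the last 3 bins, Bend3 was methylated and Asb18 and Cacna1a were unmethylated in all 20 libraries.
Bend3, exon 4, chr10:43511401-43511600, plus strand: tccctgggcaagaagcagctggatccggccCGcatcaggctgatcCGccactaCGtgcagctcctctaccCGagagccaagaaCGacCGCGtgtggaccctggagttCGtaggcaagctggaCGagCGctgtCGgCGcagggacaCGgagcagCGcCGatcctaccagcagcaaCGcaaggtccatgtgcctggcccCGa
Asb18, exon 4, chr1:89968401-89968600, plus strand: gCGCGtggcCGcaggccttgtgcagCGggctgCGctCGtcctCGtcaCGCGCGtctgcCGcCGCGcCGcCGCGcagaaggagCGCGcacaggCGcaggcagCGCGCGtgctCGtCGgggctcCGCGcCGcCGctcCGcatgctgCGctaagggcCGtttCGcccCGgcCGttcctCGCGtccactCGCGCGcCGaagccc
Cacna1a, exon 19, chr8:84559201-84559400, plus strand: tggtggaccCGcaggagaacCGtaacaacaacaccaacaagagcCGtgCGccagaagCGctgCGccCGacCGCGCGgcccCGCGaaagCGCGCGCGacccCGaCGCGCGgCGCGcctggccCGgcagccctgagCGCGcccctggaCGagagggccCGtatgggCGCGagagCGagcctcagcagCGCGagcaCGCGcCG
The genes Adra1b, Runx1 and Asb18 are transcribed from the other strand than the one printed. The measured CpGs spanned bases 2 to 193 of the Asb18 bin but only bases 95 to 167 of the Hspg2 bin.

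Library totals were 23248139 to 45769589 reads summed over CpGs, and the median CpG had 7 to 13 reads. The exonic bins took 545118 to 1067726 of these reads per library, and a bin had a median of 46 reads per library at 1 to 3 CpGs, 172 at 4 to 9 CpGs and 431 at 10 or more. A read that spans several CpGs is counted at each of them, so these sums are counts of CpG calls, not of molecules. Where 1 CpG had only 10 reads, 1 read moved its level by 10 percentage points. AME-d0 replicates 1 and 3 were low and Con-d0 replicate 5 was high in mean exonic methylation, so class means and counts of called bins that rest on them are also given without them. For every 100 autosomal reads, the X chromosome of AME-d21 replicate 4 took 2.88, where no Con library exceeded 1.54. Its Y short arm took 14.3 reads per 1e6, where the other libraries had 147 to 191. Its label is male, but these X and Y reads were at odds with that label and unlike those of all other libraries. Class means, gaps and counts of called bins that use this library are also given without it. No pair of libraries of 1 group held the same counts in more than 0.666% of the exonic bins, so all 20 were kept as separate samples.

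Mean exonic methylation rose from birth to weaning in all 3 CpG classes, and the rise was smaller in classes of more measured CpGs. At 1 to 3 CpGs, the 5 Con-d0 libraries lay at 72.5, 72.3, 72.6, 72.7 and 75.5% and the 5 Con-d21 libraries at 80.9 to 81.4%. The group means were 73.1% ± 1.32 (SD, n = 5) and 81.2% ± 0.2003 (SD, n = 5), a difference of 8.07 points. At 4 to 9 CpGs the means were 72.8% ± 0.910 and 79.8% ± 0.270, a difference of 7.06 points. At 10 or more CpGs they were 41.7% ± 0.439 and 45.4% ± 0.420, a difference of 3.74 points. The 5 libraries of either age did not overlap in any class, and each difference had p = 0.00794 in an exact two-sided permutation test, the smallest that 5 against 5 allows (Benjamini-Hochberg adjusted over 12 class means, 0.0159).

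In AME the same means rose by 9.81, 8.21 and 4.25 points from d0 to d21, again with p = 0.00794 in the exact permutation test for each class. Without AME-d0 replicates 1 and 3 the rises were 8.45, 7.38 and 3.88 points, and without Con-d0 replicate 5 the Con rises were 8.66, 7.45 and 3.90 points. Without AME-d21 replicate 4 the AME differences were 9.91, 8.29 and 4.35 points. The SD of the class mean at 1 to 3 CpGs was 1.32 points in Con-d0 and 2.13 in AME-d0 but 0.2003 in Con-d21 and 0.300 in AME-d21, a contrast given without a test.

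**Figure D1:**
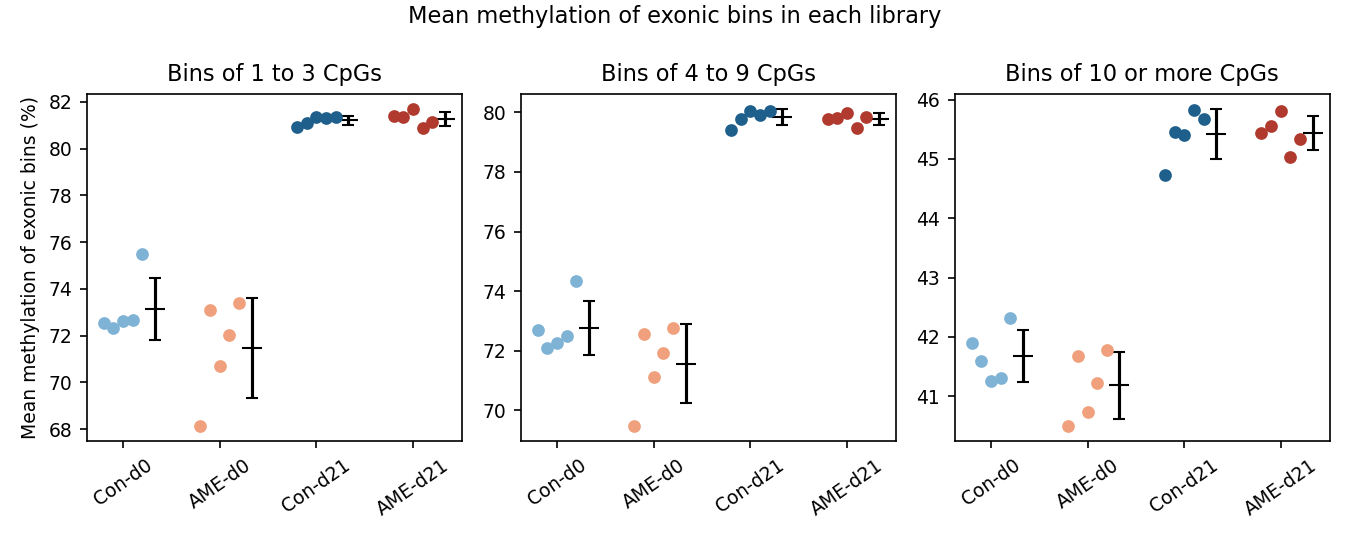
Mean methylation (%) of the exonic bins in each library, by group, for bins of 1 to 3, 4 to 9 and 10 or more measured CpGs. Each point is 1 library, the bar is the group mean with its SD over 5 libraries, and the vertical axes differ between panels and do not start at 0. All d21 libraries lie above all d0 libraries in each panel, AME-d0 replicate 1 is lowest at 68.2% in the first panel, and Con-d0 replicate 5 is the highest of the d0 libraries at 75.5%.

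Promoters of cell type markers, taken as 1 kb on either side of a TSS, moved over the same interval. The 8 measured hepatocyte promoters of 28 listed averaged 31.5 to 34.3% in Con-d0 and 11.1 to 16.2% in Con-d21, and 6 of them were lower in every Con-d21 library than in any Con-d0 library. The 15 measured haematopoietic and myeloid promoters of 30 listed averaged 9.23 to 10.9% and 19.4 to 21.8%, and 9 were higher in the same sense. Over all bin parts, 24.7% were higher and 2.98% lower in this way, and over bin parts near a TSS 19.7% and 3.18%. Bin parts are smaller units than these promoters, and non-overlap also depends on the reads summed. The share over all promoters is not given here, so no excess of the marker promoters is read from these shares. The 9 erythroid promoters averaged 11.3 to 15.3% in Con-d0 and 19.2 to 20.04% in Con-d21, with 3 higher without overlap. The 8 endothelial promoters averaged 11.9 to 15.6% and 18.7 to 21.9%, with 3 higher and 1 lower without overlap. In AME-d0 the hepatocyte, haematopoietic, erythroid and endothelial promoters averaged 27.7 to 32.9%, 8.08 to 9.13%, 9.79 to 12.2% and 9.71 to 12.8%. The part of these shifts in the exonic differences was not tested.

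The rise with age was spread over many exons, and the falls were few. In Con, 2167 of the 6611 exonic bins were called higher at d21 and 205 lower by limma, where a call needed a Benjamini-Hochberg adjusted p under 0.05 over all bin parts and a difference of at least 10 percentage points. Over all 155318 bin parts, 27.8% were called higher and 3.30% lower, and among exonic bins the shares were 32.8% and 3.10%. The called bins lay in 1430 gene names for the higher and 157 for the lower, and 32 names held both. In AME, 2714 bins were called higher and 175 lower, against 33.6% and 2.90% of all bin parts. Without AME-d0 replicates 1 and 3 these counts were 1995 and 165, without AME-d21 replicate 4 they were 2676 and 165, and without Con-d0 replicate 5 the Con counts were 2332 and 193. Both treatments shared 1669 higher and 160 lower exonic bins, and no exonic bin was called in opposite directions. Shared calls were not counted over all bin parts, so this overlap is not read as a trait of exons.

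At a minimum of 10 points, the share of bins called higher fell with the number of measured CpGs. In Con it was 35.9% of the bins of 1 to 3 CpGs, 28.5% of those of 4 to 9 and 11.3% of those of 10 or more, and the shares called lower were 3.24%, 2.62% and 4.45%. A count by non-overlap, which uses neither limma nor this minimum, gave another order. All Con-d21 libraries lay above all Con-d0 libraries in 28.4%, 45.999% and 34.01% of the bins of these classes. Non-overlap also depends on the reads per bin, with medians of 46, 172 and 431 per library in these classes. Intronic bins more than 5 kb from a TSS were called higher in 40.8%, 34.5% and 13.1% of the same classes, and intergenic bins in 36.1%, 26.3% and 7.27%. Of the dense exonic bins 28 rose and 11 fell, of 137 dense intronic bins 18 rose and 4 fell, and of 454 dense intergenic bins 33 rose and 1 fell. In AME the exonic shares called higher were 44.2%, 37.8% and 11.3%, and the shares called lower 2.74%, 2.26% and 4.05%. Differences between these categories are descriptions, with no test.

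**Figure D2:**
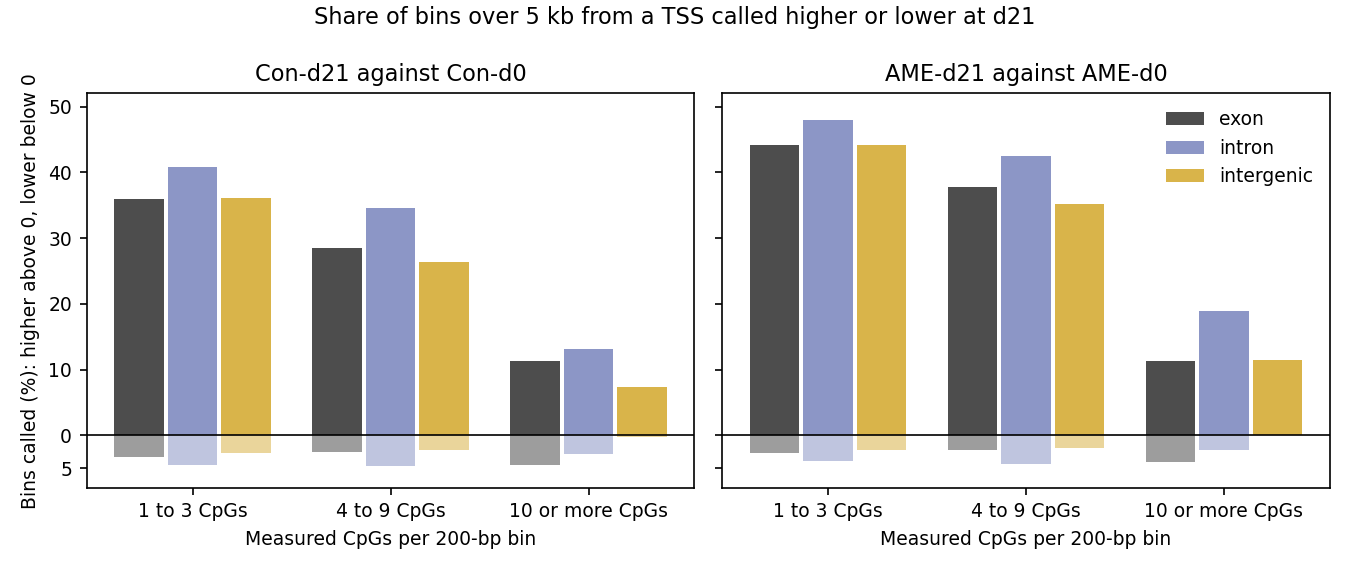
Share of bins (%) called higher at d21 (bars above 0) and lower (pale bars below 0) in Con (left) and AME (right), for exonic, intronic and intergenic bins more than 5 kb from a TSS, by measured CpGs per bin. In Con, 35.9%, 28.5% and 11.3% of exonic bins were called higher with rising CpG number, and exonic bars lie below the intronic bars in every class.

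Levels at birth were alike in the classes of 1 to 3 and 4 to 9 CpGs and lower in the dense class. In Con-d0, 62.8% of the bins of 1 to 3 CpGs and 66.2% of those of 4 to 9 lay between 70 and 90%, and 8.84% and 9.46% lay at 90% or above. By Con-d21 the top range held 44.9% and 47.6% of these classes. The bins of 10 or more CpGs fell into a low and a high set at both ages. At d0, 109 of the 247 dense bins were under 10% in Con, 86 lay between 70 and 90%, 15 at 90% or above and only 4 between 30 and 50%. At d21, 97 dense bins were under 10% and 71 were at 90% or above.

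When bins were sorted by their level in AME-d0, a group that the Con comparison did not use, the share of bins called higher was largest at intermediate levels. A call needed a change of at least 10 points, so bins at 90% or above had little room to be called higher. Bins under 10% likewise had little room to be called lower. The shares at these ends of the scale are therefore partly set by the threshold, which does not hold back rises from under 10%. Among bins of 1 to 3 CpGs, 13.7% of the 102 under 10% were called higher in Con, 52.7% of the 112 between 10 and 30% and 6.33% of the 300 at 90% or above. Among bins of 4 to 9 CpGs the highest share was 54.2%, of the 96 between 30 and 50%. Falls also peaked at intermediate levels, at 8.72% of 298 bins and 10.4% of 96 bins between 30 and 50% in the first and second class. In dense bins 4 of the 8 between 30 and 50% and 5 of the 14 between 50 and 70% were called lower, and these ranges hold under 20 bins each.

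**Figure D3:**
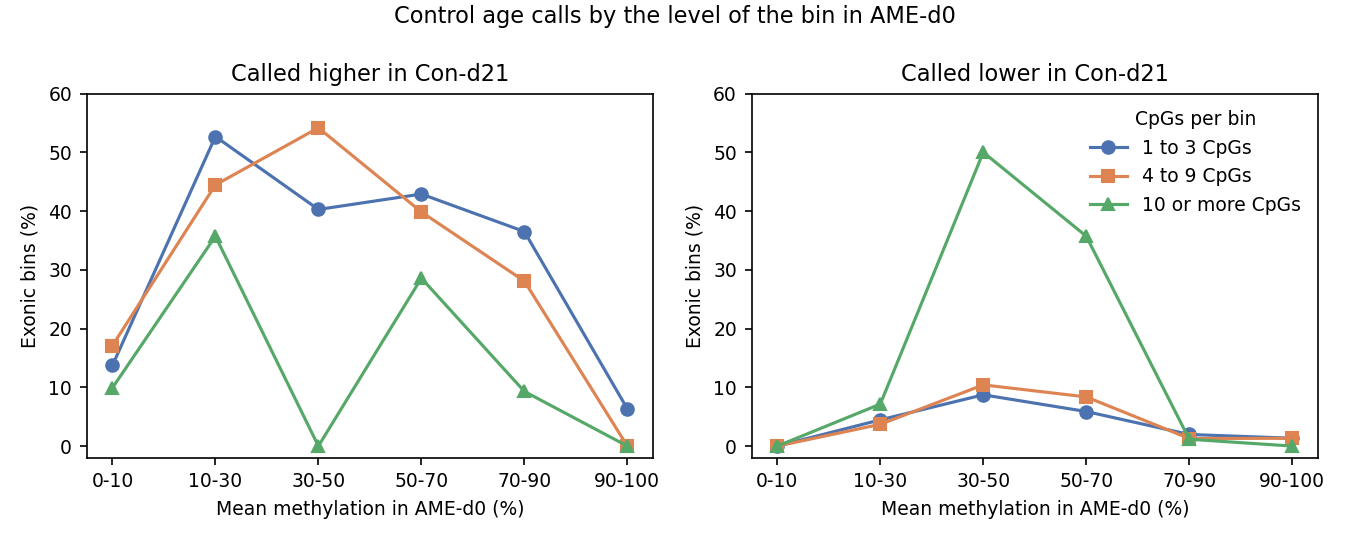
Share of exonic bins (%) called higher (left) or lower (right) in Con-d21 than in Con-d0, by the mean methylation of the bin in AME-d0, for 3 classes of measured CpGs per bin. The highest shares called higher are 52.7% at 10 to 30% for 1 to 3 CpGs and 54.2% at 30 to 50% for 4 to 9 CpGs, and the dense points between 10 and 70% and at 90 to 100% rest on 8 to 14 bins each. A call needs a change of at least 10 points, which leaves little room for rises at 90 to 100% or for falls under 10%.

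The 4 largest gains in each CpG class, among called bins of at least 2 CpGs whose Con groups did not overlap, lay between 5.49 and 33.8% on average in Con-d0 and between 52.9 and 88.3% in Con-d21. Asap3, which encodes a GTPase-activating protein of Arf proteins, had the largest of these rises among bins of 1 to 3 CpGs. Its exon 13 of 25 stood at 0, 20.8, 14.3, 20.8 and 13.9% in Con-d0 and at 84.4, 83.3, 66.7, 69.6 and 66.7% in Con-d21. The 2 ages did not overlap, and the difference of 60.2 points had a limma adjusted p of 4.99e-05. In AME the bin went from 12.5% ± 7.63 to 71.7% ± 9.66 (SD, n = 5 each). The other gains of this class were the last exons of Clstn1, Kctd20 and Ankrd33b, at 55.6, 55.3 and 54.7 points, the first 2 of them in 3′ UTRs.

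Zfp57 encodes a KRAB zinc finger protein that keeps methylation at imprinted control regions, and its last exon, 5 of 5, led the class of 4 to 9 CpGs. The 7 measured CpGs printed above averaged 29.7, 15.8, 34.3, 28.0 and 42.6% in Con-d0 and 86.1, 85.7, 86.3, 95.1 and 88.4% in Con-d21. All 7 rose, by 52.02 to 61.1 points, and the bin difference of 58.2 points had a limma adjusted p of 5.54e-06. In AME-d21 the bin lay at 77.2 to 85.7%, so its highest library equalled the lowest of Con-d21, and the AME-d21 against Con-d21 difference had an adjusted p of 0.978.

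Adra1b, the alpha-1B adrenergic receptor of hepatocytes among other cells, gained methylation in 3 adjacent exonic bins, which went from 7.84, 5.49 and 38.1% to 61.1, 52.9 and 78.9%. In the bin of 24 CpGs, in exon 5 of 5, Con-d0 libraries lay at 6.38, 4.29, 7.04, 5.17 and 4.60% and Con-d21 libraries at 51.8, 50.2, 40.8, 60.5 and 61.4%. The difference of 47.4 points had a limma adjusted p of 6.19e-07. The CpGs did not move alike, with rises of 15.0 to 60.9 points. The CpGs at bases 35, 37 and 104 of the bin stood at 16.4, 19.7 and 28.1% in Con-d21 and at 18.6, 23.7 and 20.6% in AME-d21, while the CpG at base 62 stood at 70.2 and 64.9%.

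Urad, which encodes an enzyme of urate breakdown in liver, had 8 measured CpGs in the second of its 2 exons. The bin stood at 6.08, 4.76, 7.52, 6.35 and 8.82% in Con-d0 and at 50.8, 39.1, 77.1, 65.8 and 62.5% in Con-d21, a rise of 52.4 points with a limma adjusted p of 3.75e-06. Its d21 libraries were widely spread, with an SD of 14.6 points against 1.54 at d0. The 3′ UTR of Shisal1 rose from 33.8% ± 7.61 to 86.0% ± 4.93 (SD, n = 5 each).

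Neurl1b, an E3 ubiquitin ligase that acts on Notch ligands, led the dense class with 18 measured CpGs in an island of exon 3 of 5. Con-d0 libraries lay at 19.2, 12.1, 13.8, 12.7 and 8.59% and Con-d21 libraries at 72.2, 61.5, 64.1, 76.1 and 52.2%. The rise of 51.9 points had a limma adjusted p of 4.75e-06, and single CpGs rose by 15.8 to 75.5 points. Eva1a and AI661453 were the other dense gains, at 47.9 and 44.2 points, both in islands inside coding sequence.

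The largest losses, chosen in the same way, went from 48.0 to 93.2% in Con-d0 down to 6.05 to 42.3% in Con-d21. Whamm, an activator of actin branching, stood in its exon 10 of 10 at 80.8, 87.1, 88.9, 91.0 and 82.3% in Con-d0 and at 23.8, 29.6, 28.0, 33.6 and 30.2% in Con-d21. It fell by 56.96 points, with a limma adjusted p of 1.17e-06. Smarca4, the ATPase of the BAF chromatin remodelling complexes, stood in exon 12 of 34 at 85.2% ± 2.11 and 32.3% ± 7.35 (SD, n = 5 each). Lrp6, a Wnt co-receptor, fell from 86.5% ± 3.89 to 35.7% ± 8.10 in exon 12 of 23, and the neighbouring bin of the same exon, with 1 CpG, fell from 81.3% ± 5.19 to 42.3% ± 9.87. The 3′ UTR of Ddx23, an RNA helicase of the spliceosome, fell from 77.4% ± 5.23 to 27.6% ± 9.34.

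Arid2, a subunit of the PBAF form of these remodelling complexes, fell with little spread between libraries. Its exon 15 of 21 stood at 93.1, 93.2, 92.3, 92.4 and 94.9% in Con-d0 and at 39.1, 40.3, 43.3, 44.7 and 43.9% in Con-d21. All 8 CpGs of the bin were measured and all fell, by 44.3 to 56.7 points, and the bin had a limma adjusted p of 1.97e-07. In AME-d21 the libraries spread from 40.5 to 65.6%, with 51.6% ± 10.2 (SD, n = 5), and the difference from Con-d21 had an adjusted p of 0.978.

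Hspg2 encodes perlecan, a heparan sulfate proteoglycan of basement membranes, and had 20 exonic bins, the second most of any gene. In Con, 10 of them were called higher and 2 lower, and the 2 that fell are neighbours in exons 78 and 79 of 97. The bin of exon 79 stood at 83.2, 76.5, 82.7, 87.7 and 80.8% in Con-d0 and at 33.6, 29.8, 30.2, 20.6 and 35.1% in Con-d21. Its limma adjusted p was 2.72e-06, whereas the Hspg2 bins outside this pair changed by -3.66 to 17.5 points.

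Dysf, a membrane repair protein of muscle, fell from 75.6% ± 8.07 to 19.5% ± 5.06 (SD, n = 5 each) in exon 34 of 56. Notch3, a Notch receptor of vascular mural cells, fell from 73.7% ± 4.25 to 24.6% ± 5.03 in its last exon, 33 of 33. Its 5 CpGs fell by unequal amounts, and the CpG at base 9 of the bin went from 53.7 to 40.5% whereas that at base 109 went from 87.6 to 24.4%.

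In the dense class the losses lay in islands of Shank3, Agap2, Runx1 and Runx3. Runx1, a transcription factor needed for blood stem cells, stood in its exon 8 of 8 at 52.8, 51.6, 64.3, 45.2 and 49.0% in Con-d0 and at 6.00, 10.02, 6.89, 20 and 21.7% in Con-d21. The 15 CpGs fell together, by 36.8 to 42.9 points, and the bin had a limma adjusted p of 7.93e-05. The neighbouring bin of 5 CpGs fell from 51.1% ± 9.06 to 14.0% ± 7.41 (SD, n = 5 each). In AME the Runx1 bin of 15 CpGs went from 45.2% ± 7.15 to 6.56% ± 4.25.

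Runx3, a related factor of lymphocytes, fell from 53.2% ± 8.09 to 14.1% ± 4.73 (SD, n = 5 each) in exon 6 of 6. Agap2, a GTPase-activating protein of Arf proteins, fell from 48.0% ± 4.31 to 6.05% ± 1.97, and Shank3, a synaptic scaffold, from 70.7% ± 4.01 to 25.9% ± 7.96. In Con-d0 the Agap2, Runx1 and Runx3 bins lay between 40.4 and 64.3% in each library, and each came down to at most 21.7% in Con-d21.

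**Figure D4:**
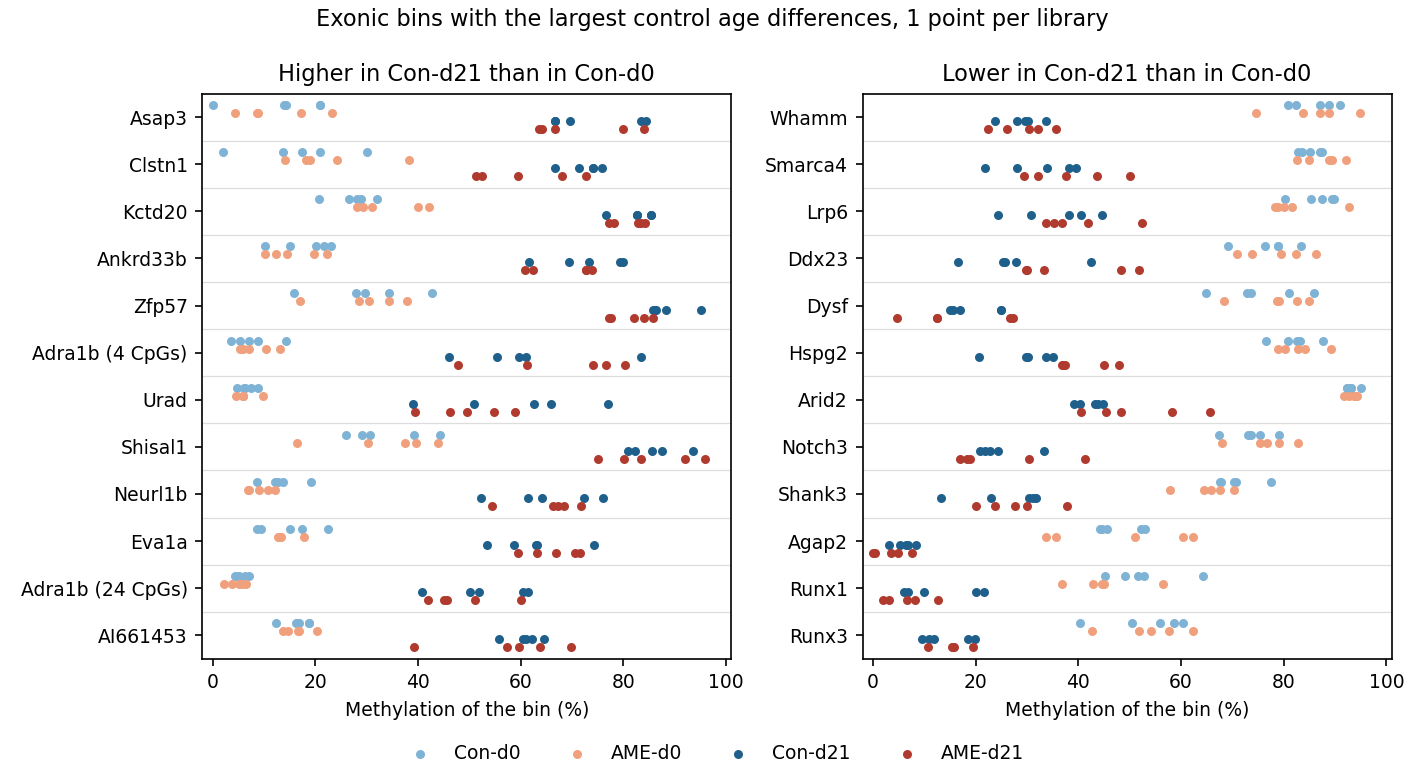
Methylation (%) of 24 exonic bins, 4 for each CpG class and direction, with 1 point per library coloured by group. They had the largest gains (left) and losses (right) from Con-d0 to Con-d21 among called, non-overlapping bins of at least 2 CpGs. Within a class and direction, each gene gave 1 bin. The Con-d0 and Con-d21 points of a row never overlap, which the choice of bins required, and the AME-d0 and AME-d21 points, which the choice did not use, do not overlap in any row either.

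**Figure D5:**
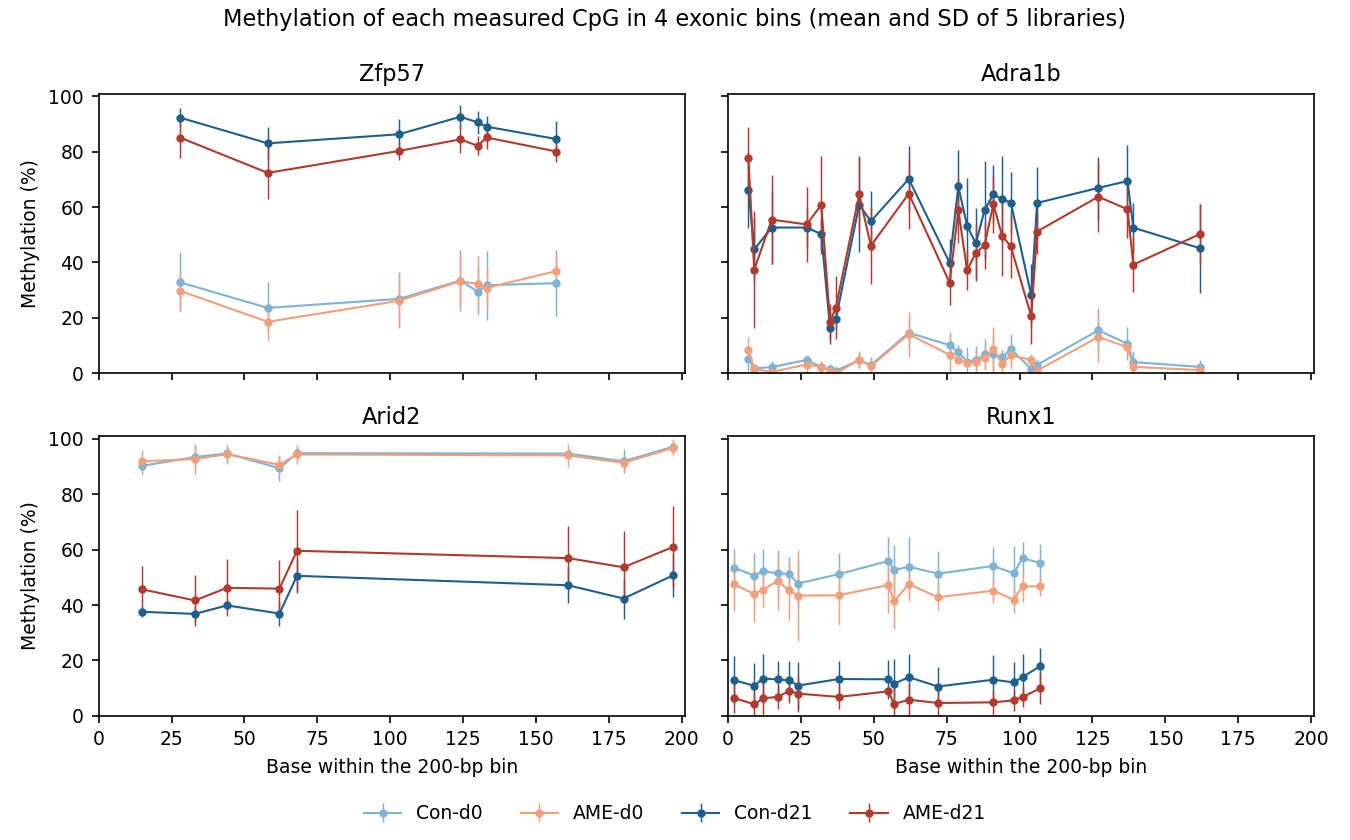
Methylation (%) of each measured CpG, as mean and SD of 5 libraries per group, against the base within the 200-bp bin, for Zfp57, Adra1b (bin of 24 CpGs), Arid2 and Runx1. CpGs of Zfp57, Arid2 and Runx1 move together, whereas in Adra1b the CpGs at bases 35, 37 and 104 reach 16.4 to 28.1% in Con-d21 while the CpG at base 62 reaches 70.2%.

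Many dense exons stayed near either end of the scale at both ages. Of the 247 dense bins, 85 (34.4%) were under 10% in every library and 53 (21.5%) were over 80% in every library. Asb18, a substrate adaptor of ubiquitin ligases, had the most CpGs of the low set, with 40 measured CpGs in exon 4 of 6 at 0.322 to 1.35% in Con-d0 and 0.466 to 1.09% in Con-d21. Cacna1a, a neuronal calcium channel subunit, had 35 CpGs in exon 19 of 47 at 0.783% ± 0.344 and 1.22% ± 0.515 (SD, n = 5 each). Ryr1, the calcium release channel of skeletal muscle, had 32 CpGs at 0.992% ± 0.407 and 1.57% ± 0.404.

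Speg, a muscle kinase, Bend3, a transcriptional repressor, and Tenm2, a teneurin of neurons, had the most CpGs of the high set. Bend3 stood at 81.9 to 92.3% in Con-d0 and at 92.6 to 96.6% in Con-d21 over 17 CpGs, Speg went from 85.7% ± 3.03 to 92.8% ± 0.994 (SD, n = 5 each), and Tenm2 from 85.9% ± 3.89 to 92.4% ± 1.14. Their limma adjusted p values were 0.00634, 0.00538 and 0.0129, but the differences of 6.57 to 7.03 points were under the 10 points a call needed.

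Dense exonic bins also differed in where they lay. A CpG island, called on the reference in 500-bp windows from a GC content of 55% and a ratio of observed to expected CpGs of 0.65, held 74.1% of them, against 15.2% of the bins of 4 to 9 CpGs and 4.43% of those of 1 to 3. The 183 dense bins in islands averaged 29.1% in Con-d0 and 32.2% in Con-d21, and the 64 dense bins outside islands 77.6 and 83.1%. Of the 183, 24 were called higher and 10 lower (13.1% and 5.46%), beside 11.3% and 4.45% of all dense exonic bins. Over all classes, island bins were called higher in 118 of 680 cases (17.4%) and other bins in 2049 of 5931 (34.5%). These shares stand beside 32.8% of all exonic bins and 27.8% of all bin parts. Island bins averaged 49.2% in Con-d0 and other bins 74.4%, and the part of this level in the shares was not tested.

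Median age changes lay close together across kinds of exon. Median Con differences were 7.78 points over 5111 bins of coding sequence, 7.75 over 1245 of 3′ UTRs, 9.43 over 210 of non-coding exons and 6.53 over 45 of 5′ UTRs. Bins of last exons lay lower than those of other exons, at 69.1 and 73.8% in Con-d0 and 76.6 and 81.5% in Con-d21, with median changes of 7.37 and 8.07 points. With distance from the TSS, the Con-d0 mean went from 70.3% at 5 to 10 kb to 74.2% beyond 50 kb, and the shares called higher were 32.996% of 2967 bins and 31.6% of 320. These are descriptions, with no test.

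Several genes contributed many bins, and their counts stand beside the 32.8% of all exonic bins and 27.8% of all bin parts called higher in Con. Ttn, the giant sarcomere protein titin, had 36, with 8 called higher and none lower in Con. Flg2, a filaggrin of the skin barrier, had 12 of its 16 bins called higher, with a mean of 76.6% in Con-d0 and 91.1% in Con-d21. Evpl, a plakin of the epidermis, had 7 of 12 called higher and went from 44.7 to 58.3%. Plec, a cytoskeletal linker, was already at 89.5% in Con-d0 and reached 96.3% in Con-d21, with 3 of 15 bins called higher. Fbxo41 and Ryr1 stayed low on average, at 34.1 and 44.9% in Con-d0 and 39.2 and 46.1% in Con-d21.

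Gene groups were read against all exonic bins, of which 2167 of 6611 rose, with a median Con change of 7.82 points. The plexin and semaphorin genes, receptors and ligands of cell guidance, had 12 of 21 bins called higher and 0 lower, with a median change of 11.2 points. Among them, Plxna4 rose from 32.7% ± 14.5 to 60.9% ± 9.41 and Sema6b from 42.4% ± 10.4 to 68.6% ± 10.5 (SD, n = 5 each). Collagen genes had 28 of 70 higher and 0 lower, with a median of 9.28 points, and Col5a3 rose from 62.5% ± 5.61 to 85.2% ± 4.57. Basement membrane and matrix genes had 27 of 68 higher and 3 lower, 2 of them the Hspg2 bins described above.

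Cytoskeletal giants had 48 of 126 bins higher and 1 lower. Myh14, a non-muscle myosin heavy chain, rose from 8.36% ± 0.314 to 46.2% ± 6.36 and Myo1e, an unconventional myosin, from 51.7% ± 3.74 to 80.1% ± 3.99 (SD, n = 5 each). The Notch pathway genes had 12 of 30 higher and 2 lower, with the Notch3 bin described above among the latter. C2H2 zinc finger genes had 58 of 181 higher and 3 lower, and Zfp697 rose from 14.0% ± 4.01 to 58.5% ± 7.78. Cadherin, Fat and Celsr genes had 11 of 34 higher and 0 lower, with rises of 14.8 points in Fat1 and 14.6 in Cdh23.

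Chromatin regulators had 19 of 76 higher and 3 lower, developmental transcription factors 27 of 107 and 4, ion channels 32 of 141 and 4, and LDL receptor family genes 6 of 22 and 3. In the ion channels, Cacna1i, a subunit of T-type calcium channels, rose from 61.8% ± 2.66 to 84.2% ± 2.38 (SD, n = 5 each). No clustered protocadherin bin met the rule.

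Lipid metabolism genes had 8 of 23 bins higher and 2 lower. Lpin1, a phosphatidate phosphatase of triglyceride synthesis, stood at 83.3, 90, 76.9, 94.3 and 81.8% in Con-d0 and at 13.3, 55.9, 31.0, 27.8 and 39.1% in Con-d21 at 1 CpG of exon 19 of 21, with 12 to 37 reads per library. Its limma adjusted p was 0.000122, and the d21 libraries were far apart. Ppard, a fatty acid sensing nuclear receptor, rose over 4 CpGs of exon 6 of 8 from 44.8% ± 8.73 to 88.4% ± 6.34 (SD, n = 5 each).

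The marker lists gave few exonic bins, and their counts stand beside the 32.8% of all exonic bins called higher and 3.10% called lower in Con. Of 7 hepatocyte bins 2 were called higher and 1 lower, where Fga, the fibrinogen alpha chain, fell from 62.6% ± 3.71 to 31.2% ± 11.7 in its exon 6 of 6 and G6pc, glucose-6-phosphatase, rose from 66.9% ± 8.26 to 80.3% ± 7.16 in its 3′ UTR (SD, n = 5 each). Of 10 haematopoietic and myeloid bins 4 rose and 2 fell, the latter both in Runx1. Of 18 endothelial bins 6 rose and 2 fell in Con, and 4 rose and 3 fell in AME, with Kdr, the receptor of VEGF, going from 18.5% ± 7.68 to 44.4% ± 4.79 and Stab2, a scavenger receptor of sinusoids, from 63.9% ± 8.79 to 40.03% ± 9.32. None of the 11 erythroid bins was called in either direction, with a median of 91.0% in Con-d0 and 91.4% in Con-d21, and the largest Con difference, in Sptb, a spectrin of the red cell membrane, was -10.9 points with an adjusted p of 0.297.

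Exonic bins were compared with intronic bins more than 5 kb from a TSS. In bins of 1 to 3 CpGs, exons stood 4.72 points ± 0.246 above introns in Con-d0 and 4.07 ± 0.114 in Con-d21 (SD, n = 5 each). This gap changed by -0.653 points (exact two-sided permutation p = 0.00794, adjusted over 6 gaps 0.0119). In AME it went from 5.01 ± 0.431 to 4.13 ± 0.168, a difference of -0.886 points with the same exact permutation p. It was -0.574 points without AME-d0 replicates 1 and 3 and -0.859 without AME-d21 replicate 4, where the AME changes of the gap at 4 to 9 and at 10 or more CpGs were -0.455 and -1.31 points. At 4 to 9 CpGs the gap went from 3.99 to 3.67 points in Con (exact permutation p = 0.0794 for the change). In AME it went from 4.10 to 3.61 (exact permutation p = 0.0159 for the change). Without Con-d0 replicate 5 the Con change passed the test, at -0.440 points (adjusted exact permutation p = 0.00952), and without AME-d0 replicates 1 and 3 the AME change did not, at -0.282 points (adjusted exact permutation p = 0.0794). In this class Con-d0 replicate 5 had the smallest gap of its group, 3.51 points. AME-d0 replicates 1 and 3 had the largest gaps of theirs, 4.50 and 4.33 points. Both shifts therefore follow from the choice of libraries left out.

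At 10 or more CpGs, exons stood below introns, by 4.42 points in Con-d0 and 5.43 in Con-d21. The change of this gap with age, -1.003 points, had an exact permutation p = 0.00794, and the gap itself was not tested. The dense gap rests on 137 intronic bins, and its change with age was positive, at 3.56 points in Con, when all reads of the class were pooled. It was also positive, at 1.14 points, when distance was taken from 1 TSS per gene. The comparison within genes kept the sign of the sparse gap. Over 1758 genes with exonic and intronic bins of 1 to 3 CpGs it was 3.76 points in Con-d0 and 3.28 in Con-d21, and over 542 genes at 4 to 9 CpGs it was 6.27 and 6.43, without the narrowing. In the 8 genes with dense exonic and intronic bins, exons stood above introns, by 24.2 points in Con-d0 and 25.2 in Con-d21, the opposite sign to the gap over all dense bins. In 1126 bins that held exonic and intronic CpGs side by side, the exonic CpGs stood 2.34 points ± 0.310 higher in Con-d0 and 1.28 ± 0.150 in Con-d21 (SD, n = 5 each), with no overlap between the libraries of the 2 ages. This last comparison was added after the values were seen and carries no test.

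No difference in mean exonic methylation between AME and Con passed the test at either age. At d0 the AME means were lower by 1.66 points at 1 to 3 CpGs, 1.21 at 4 to 9 and 0.491 at 10 or more, with adjusted p of 0.296, 0.238 and 0.238 in exact permutation tests. In the first class, the AME-d0 libraries lay at 68.2 to 73.4% and the Con-d0 libraries at 72.3 to 75.5%, with overlap. Without AME-d0 replicate 1 the 3 differences were -0.825, -0.687 and -0.323 points, and without replicates 1 and 3 they were -0.293, -0.369 and -0.117. Without Con-d0 replicate 5 they were -1.07, -0.813 and -0.331 points. The libraries left out were the lowest of AME-d0 and the highest of Con-d0 in these means, so the smaller differences follow from that choice. At d21 the differences were 0.0822, -0.0515 and 0.0186 points, with adjusted p of 0.695, 0.753 and 0.937 in exact permutation tests, and without AME-d21 replicate 4 they were 0.183, 0.0276 and 0.118 points.

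No exonic bin was called between AME and Con at either age by limma or by the quasi-binomial logistic model, and limma called 0% of all bin parts in either direction. At an unadjusted limma p under 0.05, 68 of 6611 exonic bins were higher and 301 lower in AME-d0. Of all 155318 bin parts, 2208 were higher and 6651 lower at this p. In AME-d21, 139 exonic bins were higher and 191 lower, beside 4084 and 3712 of all bin parts. Groups did not overlap in 12 exonic bins that were higher and 50 that were lower in AME-d0, against 0.144% and 0.681% of all bin parts, and in 29 and 25 at d21, against 0.329% and 0.335%. These counts use all libraries. The exonic shares were 0.182% and 0.756% at d0 and 0.439% and 0.378% at d21. The haematopoietic and myeloid promoters averaged 8.08 to 9.13% in AME-d0 and 9.23 to 10.9% in Con-d0, without overlap. Group means of the hepatocyte, erythroid and endothelial promoters were 30.6, 11.1 and 11.1% for AME-d0 and 32.8, 14.0 and 13.9% for Con-d0. In each of these lists the libraries of both groups overlapped. The part of these promoter differences in the exonic differences at d0 was not tested.

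The non-overlapping bins with the largest AME differences are given as values, since none passed the adjusted test. At d0, Cpeb2, a regulator of mRNA translation, stood at 70, 68, 79.4, 83.0 and 85.7% in Con-d0 and 90.3, 97.3, 92.3, 96.4 and 96% in AME-d0 at 1 CpG (adjusted p = 0.847). Both d21 groups of this bin stood at 96.8%. Ldlrad3, an LDL receptor class A protein, stood at 73.0, 65.7, 53.7, 57.7 and 66.7% in Con-d0 and 34.3, 50, 49.0, 46.7 and 53.6% in AME-d0 over 3 CpGs of exon 2 of 6 (adjusted p = 0.847). B4galt4, a galactosyltransferase, differed by 12.1 points and Gas8, a ciliary protein, by -19.3 points, each at 1 CpG.

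At d21, Rpa1, the large subunit of the single-strand DNA binding complex, stood at 31.3, 23.95, 32.9, 25.8 and 28.8% in Con-d21 and 18, 7.58, 21.9, 17.4 and 23.2% in AME-d21 over 5 CpGs of its 3′ UTR (adjusted p = 0.978). It had come down from 58.4% ± 6.46 in Con-d0 and 60.7% ± 6.54 in AME-d0 (SD, n = 5 each). Ubr4 and Mcoln2 were higher in AME-d21 by 20.97 and 17.7 points and Bicdl1 was lower by 13.0 points, each at 1 CpG with 11 to 35 reads.

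No difference between AME and Con in the change with age passed the test. The AME rise exceeded the Con rise by 1.74, 1.16 and 0.510 points in the 3 classes (exact permutation of the treatment labels within each age, adjusted p = 0.216 for each). Per bin, none of the 6611 exonic bins and 0% of all bin parts had an interaction at a limma adjusted p under 0.05. The lowest limma adjusted p of an exonic bin was 0.745. Without AME-d0 replicate 1 the 3 class differences were 0.907, 0.636 and 0.341 points, and without replicates 1 and 3 they were 0.376, 0.318 and 0.136. They were 1.15, 0.762 and 0.350 points without Con-d0 replicate 5, and 1.84, 1.23 and 0.609 without AME-d21 replicate 4. The d0 libraries left out were chosen by their low AME or high Con means, so the smaller values without them follow from that choice.

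The spread between libraries was smaller in bins of more measured CpGs. The median SD between the 5 Con-d0 libraries was 5.81 points at 1 to 3 CpGs, 3.77 at 4 to 9 and 2.05 at 10 or more, where counting of independent calls alone would give 5.45, 2.74 and 1.38. In Con-d21 it was 4.47, 2.52 and 1.54 points. In Con-d21 counting alone would give 4.46, 2.29 and 1.20 points.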

How the data were processed

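Genomic DNA of 20 livers was measured by RRBS. The authors deposited 1 table per library that gives, for each CpG with at least 1 read, the read count by methylation state, their total and the percent methylation. Bismark, BWA, Trim Galore and FastQC are listed in their processing notes, with mm10 as the build. Versions and the treatment of duplicate reads are not given in the sources used here, so a duplicate read may count as a separate one.

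CpGs that reached 10 reads in each of the 20 libraries were placed against GENCODE M21 exons and TSSs, and the reads were summed per annotation category in 200-bp bins. The level of a bin is its methylated reads over all its reads. limma 3.58.1 (R 4.3.3) was fitted, for each comparison on its 10 libraries, to the log2 ratio of methylated to unmethylated reads with 1 read added to each, over all 155318 autosomal bin parts, with Benjamini-Hochberg adjustment and a call at an adjusted p under 0.05 and at least 10 points. The method was tested on simulated data. Class means and gaps were compared by exact two-sided permutation over libraries, adjusted over 12 means, 6 gaps or 3 interactions, and p-values refer to the spread between libraries of separate litters. Levels were computed from the counts, and the deposited percent column was not used. Replicate numbers were not used as a block, since same-numbered libraries had correlated deviations of only -0.0208 to 0.0417.

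The members, the gene lists and the tests were chosen with earlier results of these data known. Bins were named by these rules: in each CpG class and direction the 4 called bins of at least 2 CpGs with the largest Con age difference and no overlap, 1 per gene; the 2 largest non-overlapping bins per direction of each AME comparison; the 2 largest called bins of each gene list; and the 3 dense bins with the most CpGs over 80% or under 10% in every library. Genes with the most bins were also named, and some bins that these rules select are not reported here. Alternatives covered read coverage, TSS and bin definitions, the model, thresholds and left-out libraries. Intervals and counts cover CpG calls, which are not independent molecules.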

Additional observations from a re-analysis of the deposited data

Results flagged for a closer look

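In Con-d0, replicate 5 stood apart from the other 4 libraries in mean exonic methylation. Its bins of 1 to 3 CpGs averaged 75.5%, against 72.3 to 72.7% in the others, and its bins of 4 to 9 CpGs averaged 74.3%, against 72.1 to 72.7%. The gap to the nearest library took 0.896 and 0.732 of the group's range, above Dixon's critical value of 0.71 for 5 samples, which chance exceeds in about 1 of 20 groups.

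The X chromosome, which no comparison used, took 2.88 reads for every 100 autosomal reads in replicate 4 of AME-d21, where the Con libraries reached at most 1.54. Its Y short arm took 14.3 reads per 1e6, against 147 to 191 in the other libraries, so its reads were at odds with its male label. Its mean exonic methylation, 80.9% at 1 to 3 CpGs, was the lowest of its group, and the cause of this low mean was not tested.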

How the results depend on the processing

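Of 610 alternative values, 549 kept their direction and their side of the threshold or stayed within 1.5 times a count. They include counts of AME and interaction calls that stayed at 0, and many values with only 1 library left out. The total is therefore no measure of how firm the results are. The d21 difference between AME and Con, close to 0 in each class, changed sign in several settings. For 1 to 3 CpGs it was -0.0774 points at a coverage of 20, -0.0146 with 1 TSS per gene and -0.000325 with bins shifted by 100 bp. For 4 to 9 CpGs it was 0.0271 with pooled reads, 0.0396 with classes by reference CpGs, 0.0158 at a coverage of 20 and 0.00473 with 1 TSS per gene. For 10 or more CpGs it was -1.23 with pooled reads and -0.0821 beyond 10 kb. Leaving out 1 library gave -0.0169 to 0.183, -0.162 to 0.0276 and -0.153 to 0.120 points.

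The change of the exon to intron gap with age also depended on the setting. Its value at 10 or more CpGs became positive in Con and AME with pooled reads (3.56 and 0.281 points), classes by reference CpGs (0.0850 and 0.0305), 1 TSS per gene (1.14 and 1.19) and within genes (0.917 and 1.23). At 4 to 9 CpGs the Con change passed the threshold with pooled reads (-0.484), classes by reference CpGs (-0.440), 1 TSS per gene (-0.482) and shifted bins (-0.455), was 0.167 within genes, and ranged from -0.440 to -0.190 with 1 library left out. The AME change there lost its call at a coverage of 20 (-0.469), within genes (-0.161) and without AME-d0 replicates 1 and 3 (-0.282). Those replicates had the largest gaps of their group in this class. At 1 to 3 CpGs the Con change lost its call with classes by reference CpGs (-0.203). The cause was not tested.

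Counts of exonic bins called higher and lower in Con were 916 and 99 at a coverage of 20, 3940 and 462 with 1 TSS per gene, 1192 and 100 beyond 10 kb, and 431 and 135 at a minimum of 20 points, and 3417 were higher with no minimum. In AME they were 1107 and 91, 4863 and 416, 1523 and 82, and 657 and 112. The first 3 settings change the number of bins tested. The quasi-binomial model called 1841 and 189 in Con and 2352 and 159 in AME. With the replicate number as a block, the class differences of 8.07, 7.06 and 3.74 points in Con and 9.81, 8.21 and 4.25 in AME, and the gap changes of -0.653 and -1.003 in Con and -0.886, -0.491 and -1.44 in AME, had p = 0.0625 in an exact test, the smallest that 5 pairs allow, so this test could not pass the threshold. The block gave 2121 and 198 calls in Con and 2664 and 165 in AME. The numbers did not pair the samples: in each comparison 1 or 2 of the 5 libraries matched their own number best.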
